A study of Mus musculus with 18 samples.

Results

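The 32 genes described here make cholesterol, sense it, move it inside the cell and send it out. They were taken by symbol from a table of 45703 genes, and all 32 passed the filter used for testing, a TPM (a transcript level scaled to gene length and to the library's total) of at least 1 in at least 3 of 18 libraries, which 14229 genes of the table passed. By role they are 8 enzymes of the mevalonate and isoprenoid steps (Acat2, Hmgcs1, Mvk, Pmvk, Mvd, Idi1, Fdps and Ggps1), 11 enzymes from squalene to cholesterol (Fdft1, Sqle, Lss, Cyp51, Tm7sf2, Msmo1, Nsdhl, Hsd17b7, Ebp, Sc5d and Dhcr7), 5 genes of SREBP control (Srebf2, Scap, Insig1, Insig2 and Lpin1), 4 of transport and storage (Stard4, Npc1, Npc2 and Soat1), the nuclear receptor gene Nr1h2, and 3 LXR targets (Abca1, Abcg1 and Mylip).

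Cholesterol is built from cytosolic acetyl-CoA, which is joined into mevalonate, turned into isoprene units, condensed to squalene and closed into the sterol rings. Srebf2 encodes SREBP2, a factor held in the endoplasmic reticulum with its escort SCAP by the INSIG proteins while sterols are plentiful. When sterols fall it travels to the Golgi, is cut by proteases and switches on the synthesis enzymes. The liver X receptors (LXR), of which Nr1h2 encodes the beta form, are activated by oxysterols and raise genes of cholesterol export. T cells need the synthesis pathway to grow and divide after activation, and sterol intermediates can bind RORγt, the lineage factor of T helper 17 (Th17) cells.

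Bulk mRNA was sequenced from mouse naive CD4+ T cells that had been driven toward the Th17 state in culture. Across the study 3 genotypes were compared: wild type (WT), Slc2a3-fl/fl Cd4-cre, which lacks the glucose transporter GLUT3, and Acly-fl/fl Cd4-cre, which lacks ATP citrate lyase (ACLY), the enzyme that makes cytosolic acetyl-CoA from citrate. In both knockouts the Cre recombinase is driven by Cd4, so the loss covers T cells from their development on. After 48 h of polarization each genotype was kept for another 24 h without or with acetate (20 mM by the protocols of the samples, 10 mM by the text of the series), and all cells then had 5 h of phorbol ester and ionomycin with brefeldin A and monensin. The 6 groups, with 3 libraries each, are called WT, GLUT3KO and ACLYKO, with or without acetate. The background is labelled C57BL/6 for 12 libraries, and for the other 6 the label carries the numbers 7 to 12 in its place. No label ties the 3 libraries of a group to different animals, so p-values measure only how these libraries spread, which may be technical.

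The promoters of 4 synthesis genes on which the results turn are shown to let their letters be read beside the values: Hmgcs1 and Acat2, whose levels parted between the genotypes, and Idi1 and Cyp51, which moved in opposite directions in the 2 knockouts. Each run is the 200 bases before the annotated start, 5′ to 3′ on the gene's strand, from the RefSeq promoter table of build GRCm38.p6. Capitals mark the core of a sterol regulatory element (SRE, the letters CACNCCAC or their complement, the kind of site SREBP binds) and the inverted CCAAT box (ATTGG or its complement, bound by NF-Y). The 2 motifs do not overlap in these runs.

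Hmgcs1 (chr13:119690151-119690350, plus strand): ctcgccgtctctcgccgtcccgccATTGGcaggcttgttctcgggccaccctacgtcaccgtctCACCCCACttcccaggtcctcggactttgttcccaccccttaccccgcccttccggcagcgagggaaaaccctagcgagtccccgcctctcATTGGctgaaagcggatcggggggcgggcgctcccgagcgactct
Acat2 (chr17:12960726-12960925, minus strand): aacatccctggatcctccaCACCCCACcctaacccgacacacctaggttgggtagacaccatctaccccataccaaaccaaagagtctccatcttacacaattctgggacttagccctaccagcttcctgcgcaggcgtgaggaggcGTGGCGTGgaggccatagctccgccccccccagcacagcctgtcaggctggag
Idi1 (chr13:8885406-8885605, plus strand): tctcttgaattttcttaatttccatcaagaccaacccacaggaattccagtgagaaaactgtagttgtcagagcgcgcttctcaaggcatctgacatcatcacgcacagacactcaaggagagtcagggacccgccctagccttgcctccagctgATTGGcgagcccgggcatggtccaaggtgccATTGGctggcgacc
Cyp51 (chr5:4104698-4104897, minus strand): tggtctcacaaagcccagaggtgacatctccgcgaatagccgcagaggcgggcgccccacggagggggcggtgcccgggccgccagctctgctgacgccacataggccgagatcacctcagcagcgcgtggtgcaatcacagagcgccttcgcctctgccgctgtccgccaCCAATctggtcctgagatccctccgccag

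Hmgcs1 held 1 SRE core between 2 CCAAT boxes, and Acat2 held 2 SRE cores, 1 on each strand, and 0 CCAAT boxes in the bases shown. Idi1 held 2 CCAAT boxes and Cyp51 held 1, with 0 SRE cores in either. Of the 32 genes, 26 had an entry in the table (Sqle, Abcg1, Fdft1, Fdps, Npc1 and Stard4 had none), and their windows of 250 bases before a start were searched on both strands. The CCAAT box was found in 15 of the 16 synthesis enzymes with an entry (93.8%), against 37.5% of 27025 genes in the table and 41.1% of 9360 tested genes. The SRE core was found in 2 of these 16 (12.5%), against 6.05% of all genes in the table. The GC box GGGCGG was in 14 of 16 (87.5%), against 63.4% of tested genes. A relaxed form of the LXR response element of the DR4 type was found in 0 of the 26, and in 0.0851% of all genes in the table. A match is a string of letters and not a bound site.

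Depth, from the reads recovered out of the TPM values, lay between 18.7 M and 30.1 M per library, with 23.3 M as the median. Acly stood at 396 ± 4.27 TPM (SD, n = 3) in WT and 11.3 ± 3.85 in ACLYKO, and Slc2a3 at 17.7 ± 2.91 in WT and 6.17 ± 2.1 in GLUT3KO, in the order the labels give. In ACLYKO Slc2a3 was at 10.2 ± 3.91 TPM and overlapped with GLUT3KO. Acly was at 679 ± 65.8 TPM in GLUT3KO, so that Acly, and not Slc2a3, set the knockouts apart. All 9 markers of Th17 and CD4 T cells were expressed. Of the 8 macrophage and dendritic cell markers C1qa was at 0 in every library and Cd68 was the highest, at 6.68 ± 2.48 TPM (SD, n = 3) in untreated ACLYKO. The CD8 T cell markers, mostly Cd8b1, summed to 11.6 to 13.01 TPM in untreated WT, 10.1 to 12.1 in GLUT3KO and 3.98 to 8.71 in ACLYKO, and to 14.7 to 16.4, 13.6 to 19.9 and 15.4 to 17.7 TPM with acetate. The B cell markers summed to 0.257 to 0.621, 0.527 to 0.981 and 0.631 to 1.99 TPM without and 1.42 to 1.56, 1.3 to 3.16 and 4.24 to 5.61 with acetate in the same order. The epithelial and stromal markers summed to 1.56 to 2.83, 3.43 to 5.23 and 2.76 to 3.99 TPM without and 3.49 to 4.48, 3.2 to 3.62 and 1.55 to 2.8 with acetate. The part of other cell types in the results was not tested. The libraries differed within groups along one main axis that held 63.6% of the within-group variance. Its 5 highest scores were those of replicate 1 in untreated WT, in untreated and acetate-treated ACLYKO and in untreated GLUT3KO, and of GLUT3KO replicate 3. The last scored only 4.10, beside 29.5 to 90.2 for the others named. On the other side untreated ACLYKO replicates 3 (-53.5) and 2 (-36.6) and untreated GLUT3KO replicate 2 (-36.0) lay farther from 0 than GLUT3KO replicate 3. Untreated ACLYKO replicate 1 stood farthest out. It was the lowest of its 3 replicates in 24 of the 32 genes and lay more than 1.5-fold below both others in 15 of them, that is 46.9%, against 40.8% of all tested genes. For the 32 genes, calls that changed without it are given beside the comparisons it enters.

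**Figure D1:**
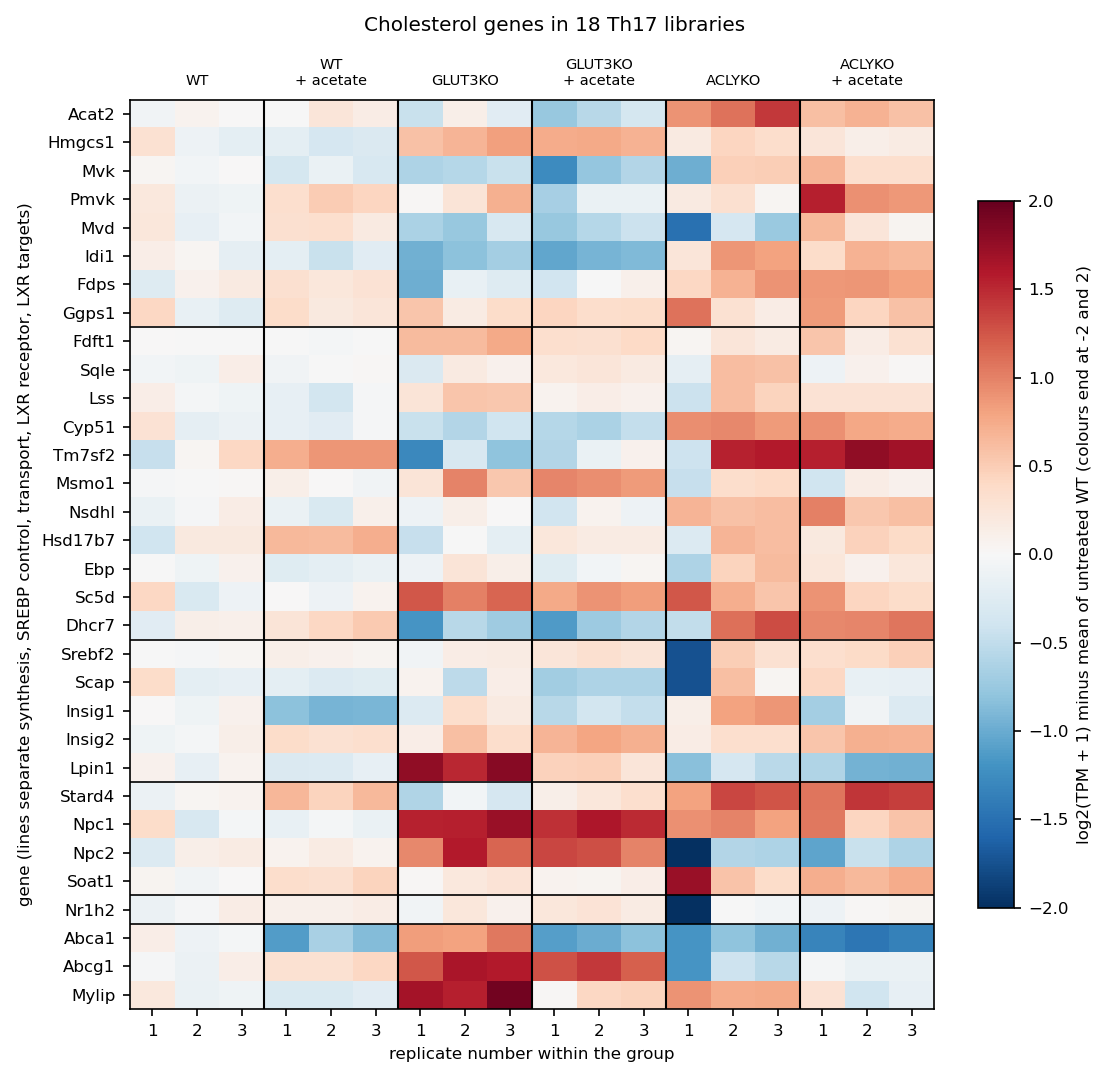
Heat map of the 32 genes (rows, in order of role) in the 18 libraries (columns, by group and replicate), as log2(TPM + 1) minus the mean of the 3 untreated WT libraries. Lpin1, Npc1, Abcg1 and Mylip are red across untreated GLUT3KO, and the first ACLYKO column stands apart from its neighbours in Srebf2, Scap, Npc2, Soat1 and Nr1h2.

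In untreated WT cells the levels per length spanned from Npc2 at 294 ± 46.7 TPM (SD, n = 3), the lysosomal carrier that lifts cholesterol from the membrane-bound pool, to Tm7sf2 at 1.85 ± 0.839 TPM, a sterol reductase. Below Npc2 came Srebf2 at 75.7 ± 1.83, Nr1h2 at 61.9 ± 5.91 and Msmo1, a sterol methyl oxidase, at 53.7 ± 0.992 TPM. The 19 synthesis enzymes summed to 386 ± 18.5 TPM in WT, 422 ± 46.5 in GLUT3KO and 531 ± 84.2 in ACLYKO. The 3 LXR targets summed to 34.1 ± 2.51, 85.9 ± 8.59 and 22.2 ± 3.28 TPM in the same order, so that the highest sum of export genes was in GLUT3KO and the highest sum of synthesis enzymes in ACLYKO.

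Loss of GLUT3 in untreated cells raised all 3 LXR targets, the lysosomal cholesterol genes Npc1 and Npc2, and Lpin1, while the synthesis enzymes split. Of the 32 genes 12 passed the test (10 higher and 2 lower, limma on log2(TPM + 1), adjusted p under 0.05 over all tested genes), beside 33.4% of all 14229 tested genes called in this comparison (24.9% higher and 8.47% lower). The 3 GLUT3KO libraries lay above all 3 WT libraries in 12 of the 32 genes and below them in 5, beside 31.2% and 14.2% of all tested genes (45.5% in all). Among the 19 enzymes 5 were called, 3 higher and 2 lower, and their median log2 change was -0.01, beside 0.17 over all tested genes. Of the markers of other cell types Epcam was called in this comparison (log2 change 0.97, adjusted p = 0.000296), and its part was not tested. In bulk RNA a change in the share of a cell type and a change in RNA per cell cannot be told apart.

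Hmgcs1, the synthase that joins acetoacetyl-CoA and acetyl-CoA into HMG-CoA, stood at 42.7, 32.05 and 29.9 TPM in WT replicates 1 to 3 and 52.4, 55.5 and 61.8 in GLUT3KO. All 3 GLUT3KO libraries lay above all 3 WT libraries, and the log2 change was 0.70 (SE 0.13, adjusted p = 0.000918). Acat2, the cytosolic thiolase that starts the pathway, was at 5.36, 6.04 and 5.72 in WT and 3.93, 6.28 and 4.71 in GLUT3KO, and the groups overlapped (log2 change -0.18, 95% interval -0.54 to 0.17, adjusted p = 0.426). Idi1, the isomerase that makes the reactive isoprene unit, went from 41.5, 38.6 and 33.1 TPM in WT to 18.8, 20.9 and 22.96 in GLUT3KO. That is a fall in every library, with a log2 change of -0.82 (SE 0.17, adjusted p = 0.0014). Mvd, the decarboxylase one step earlier, was at 28.03, 21.1 and 23 in WT and 14.96, 13.7 and 18.9 in GLUT3KO. Its 3 GLUT3KO libraries were all lower, but the change of -0.57 (95% interval -1.09 to -0.06, adjusted p = 0.0831) did not pass the test.

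Among the later enzymes Fdft1, which makes squalene, rose from 7.44, 7.37 and 7.29 to 11.96, 11.9 and 13.1 TPM, a log2 change of 0.67 (SE 0.12, adjusted p = 0.000469). Sc5d, a late sterol desaturase, rose from 19.3, 11.4 and 13.2 to 35.1, 29.9 and 33.1 TPM, a change of 1.14 (SE 0.20, adjusted p = 0.000566). Neither gene's groups overlapped. Cyp51, the demethylase of lanosterol, fell from 34.8, 24.9 and 25.8 to 20.5, 18.4 and 21.2 TPM in all 3 libraries, a change of -0.48 (SE 0.13, adjusted p = 0.0111). Sqle, the epoxidase of squalene, was at 46.8, 46.2 and 53.9 and 39.8, 55.2 and 52.04 TPM, with a log2 change of -0.01 (95% interval -0.40 to 0.38, adjusted p = 0.978), so that neither direction was shown. The remaining 11 enzymes were not called, and their log2 changes ran from -0.82 in Dhcr7, the reductase of the last step, to 0.60 in Msmo1.

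Srebf2 itself was at 75.4, 74.1 and 77.7 TPM in WT and 71.8, 83.8 and 84.9 in GLUT3KO. The log2 change was 0.08 (95% interval -0.75 to 0.91, adjusted p = 0.9), an interval wide enough to hold a rise or a fall of over 1.5-fold. It rests on 1 spread shared by all 6 groups, among them ACLYKO, where Srebf2 ran from 22.02 to 107 TPM. It is thus no measure of how these WT and GLUT3KO libraries alone spread. Insig1, a sterol-responsive retention protein of SREBP, overlapped between the groups at 23.8, 22.3 and 25.4 and 19.4, 30.7 and 26.9 TPM. Insig2, its paralog, had a called rise of 0.36 (SE 0.13, adjusted p = 0.0391). Lpin1, a phosphatidate phosphatase that also restrains nuclear SREBP, rose from 13.4, 11.2 and 13.4 to 45.8, 37.8 and 47 TPM, a log2 change of 1.7 (SE 0.15, adjusted p = 1.02e-06). It was among the largest changes of the 32.

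Npc1, the lysosomal membrane protein that passes cholesterol out of the lysosome, rose from 18.5, 11.2 and 13.8 to 43.1, 43.5 and 49.2 TPM (log2 change 1.6, SE 0.17, adjusted p = 5.86e-06). Its soluble partner Npc2 rose from 294 ± 46.7 to 701 ± 159.7 TPM (SD, n = 3), a change of 1.24 (SE 0.33, adjusted p = 0.00874). Stard4, a cytosolic sterol carrier, was at 11.1, 12.5 and 12.8 in WT and 7.59, 11.6 and 9.34 TPM in GLUT3KO, with overlap. Soat1, which esterifies cholesterol for storage, was not called either (log2 change 0.17).

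Nr1h2, the receptor, was at 56.6, 60.8 and 68.3 TPM in WT and 58.4, 72.6 and 65.3 in GLUT3KO and overlapped (log2 change 0.08, 95% interval -0.83 to 0.99, adjusted p = 0.909). This interval too uses the spread shared with ACLYKO, where Nr1h2 ran from 11.03 to 61.1 TPM. The export targets of LXR rose. Abca1, the pump that loads cholesterol onto apolipoprotein A-I (chr4:53030789-53159988, minus strand, GRCm38.p6), went from 19.2, 16.2 and 16.9 to 32.02, 31.1 and 37.2 TPM, a change of 0.90 (SE 0.15, adjusted p = 0.000268). Abcg1, the pump that delivers cholesterol to formed lipoproteins (chr17:31057694-31117984, plus strand), went from 13.7, 12.7 and 15.3 to 34.2, 45.3 and 43.8 TPM, a change of 1.49 (SE 0.18, adjusted p = 1.21e-05). Mylip, a ubiquitin ligase that removes lipoprotein receptors (chr13:45389742-45411940, plus strand), went from 3.35, 2.44 and 2.53 to 10.9, 9.995 and 13.3 TPM, a change of 1.72 (SE 0.18, adjusted p = 3.96e-06). The lowest GLUT3KO library was above the highest WT library in each of the 3.

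With libraries rescaled by the median ratio of genes, the median of all genes moved from 0.17 to -0.01 and 16 of the 32 were called, now 9 higher and 7 lower: Insig2 was lost and Mvk, Mvd, Fdps, Dhcr7 and Stard4 were called lower (from -0.96 (adjusted p = 0.0241) for Dhcr7 to -0.53 (adjusted p = 0.0139) for Stard4). The Insig2 call also ended without WT replicate 1 or 2 or GLUT3KO replicate 2 or 3 (adjusted p from 0.0881 to 0.152). That of Cyp51 ended when the 6 libraries of the comparison were fitted alone (log2 change -0.48, adjusted p = 0.0779). That of Npc2 ended with voom on recovered reads (log2 change 0.97, adjusted p = 0.0735). Both settings also lost Insig2. Fitted alone, Mvk and Dhcr7 were gained as lower, and with voom Mvd and Fdps were, with 0 genes gained as higher in either.

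**Figure D2:**
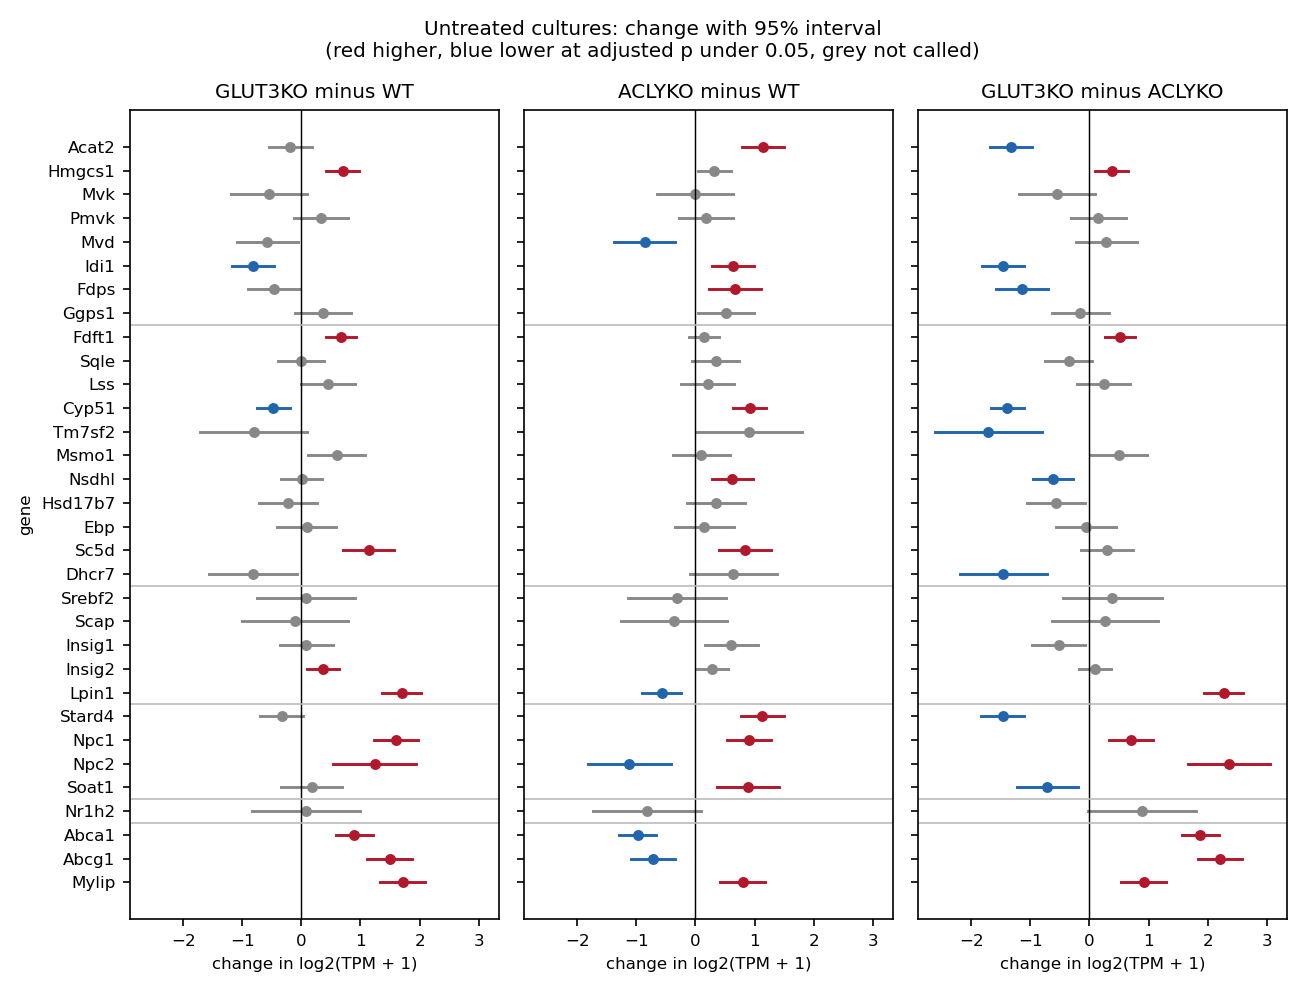
Change in log2(TPM + 1) with its 95% interval for the 32 genes in untreated cells, for GLUT3KO minus WT, ACLYKO minus WT and GLUT3KO minus ACLYKO on a common horizontal axis (red called higher, blue called lower, grey not called). Idi1 and Cyp51 are blue in the first panel and red in the second, and Abca1, Abcg1 and Lpin1 are the reverse.

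Loss of ACLY in untreated cells went with higher levels of several synthesis enzymes and of the sterol carrier Stard4, and with lower Abca1, Abcg1 and Lpin1. Of the 32 genes 15 were called (10 higher and 5 lower), beside 19.1% of all tested genes (12.7% higher and 6.38% lower). The groups did not overlap in 13 genes with the higher level and 5 with the lower, beside 16.1% and 10.8% of all tested genes (26.8% in all). The 19 enzymes had 6 higher and 1 lower, with a median log2 change of 0.34 beside 0.03 over all tested genes. Among markers of other cell types Cd68 (log2 change 1.43, adjusted p = 0.00419) and Epcam (log2 change 0.85, adjusted p = 0.00172) were higher and Cd8b1 (log2 change -0.85, adjusted p = 0.0125) lower in ACLYKO, and their part was not tested. In this comparison the same untreated WT libraries serve as the control as for GLUT3KO.

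In ACLYKO replicates 1 to 3 Acat2 stood at 11.5, 13.3 and 16.9 TPM, above every WT library, a log2 change of 1.14 (SE 0.17, adjusted p = 0.000284). Idi1 was at 44.8, 69.9 and 66.2 TPM, also above every WT library, a change of 0.64 (SE 0.17, adjusted p = 0.0133). Hmgcs1, at 39.3, 46.8 and 44.3 TPM, overlapped with WT, and its change of 0.32 (95% interval 0.04 to 0.61, adjusted p = 0.108) was not called. Mvd was at 7.82, 18.6 and 13.9 TPM, below every WT library, a called log2 change of -0.86 (SE 0.24, adjusted p = 0.022). Fdps, which joins the isoprene units into farnesyl diphosphate, went from 42.5 ± 6.55 to 68.2 ± 11.2 TPM (SD, n = 3), a change of 0.67 (SE 0.21, adjusted p = 0.0334).

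Cyp51 reached 54.3, 56.1 and 51.9 TPM in ACLYKO, with little spread and no overlap with WT, a change of 0.92 (SE 0.13, adjusted p = 0.000217). Sc5d reached 35.4, 24.3 and 21.4 TPM (log2 change 0.84, SE 0.20, adjusted p = 0.00943). Nsdhl, a sterol dehydrogenase of the demethylation steps, went from 6.89 ± 0.794 to 11.1 ± 0.374 TPM (log2 change 0.62, SE 0.16, adjusted p = 0.0133). Sqle, at 43.2, 75.5 and 73.7 TPM, was above WT in replicates 2 and 3 and below it in replicate 1, and was not called (log2 change 0.34, 95% interval -0.05 to 0.74, adjusted p = 0.218). Fdft1, at 7.56, 8.86 and 8.42 TPM, lay a little above all WT libraries without passing the test (log2 change 0.15, 95% interval -0.11 to 0.40, adjusted p = 0.411).

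Among the genes of SREBP control Srebf2 and Scap spread widely in ACLYKO. Srebf2 was at 22.02, 107 and 93.6 TPM, so that 1 library lay below all WT libraries and 2 lay above them. Over the 3 libraries its change was -0.31 (95% interval -1.14 to 0.52, adjusted p = 0.608), and without replicate 1 it was 0.40 (adjusted p = 0.00704). Scap, the escort of SREBP, spread as widely, at 13.4, 71.8 and 48.4 TPM beside 60.9, 40.9 and 41.8 in WT, with replicate 1 below WT, replicate 2 above it and replicate 3 within it. It was called neither with replicate 1 (log2 change -0.37, 95% interval -1.26 to 0.53, adjusted p = 0.575) nor without it (log2 change 0.32, adjusted p = 0.384). Insig1 was at 25.9, 42.5 and 44.7 TPM, above all WT libraries, with a change of 0.61 (95% interval 0.16 to 1.05, adjusted p = 0.0566) that missed the threshold and passed it with the replicate numbers as a block (adjusted p = 0.0231). Ggps1, which makes geranylgeranyl diphosphate, gave 0.125 without and 0.0336 with the block as adjusted p. Lpin1 fell to 6.62, 9.8 and 8.38 TPM, a change of -0.57 (SE 0.15, adjusted p = 0.0173).

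All 4 genes of transport and storage were called. Stard4 reached 21.9, 32.1 and 30.4 TPM, every library above WT (log2 change 1.13, SE 0.17, adjusted p = 0.000314), and Npc1 reached 27.8, 29.3 and 25.5 TPM (log2 change 0.91, SE 0.17, adjusted p = 0.00203). Soat1 was at 40.7, 17.8 and 15.4 TPM beside 12.2, 11.03 and 11.8 in WT, with the rise largest in replicate 1 (log2 change 0.89, SE 0.24, adjusted p = 0.0186, and 0.47, adjusted p = 0.00348, without it). Npc2 was at 65.3, 193 and 189 TPM beside 240.1, 315 and 326 in WT, a log2 change of -1.12 (SE 0.33, adjusted p = 0.0266) that came to -0.61 (adjusted p = 0.0423) without replicate 1.

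Nr1h2 stood at 11.03, 61.1 and 59.7 TPM in ACLYKO and was not called (log2 change -0.81, 95% interval -1.73 to 0.10, adjusted p = 0.205). Without replicate 1 its log2 change was -0.03 (adjusted p = 0.885). Abca1 fell to 7.13, 9.58 and 8.5 TPM (log2 change -0.98, SE 0.15, adjusted p = 0.00034) and Abcg1 to 5.54, 10.2 and 9.15 TPM (log2 change -0.71, SE 0.18, adjusted p = 0.0101), each with all libraries below WT. Mylip went the other way, to 5.97, 5.28 and 5.35 TPM (log2 change 0.80, SE 0.18, adjusted p = 0.00563), so that the 3 LXR targets did not move as one group in ACLYKO.

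Without ACLYKO replicate 1, 23 of the 32 genes were called, with Mvd lost (log2 change -0.54, adjusted p = 0.0519) and 9 gained, all higher: Hmgcs1, Sqle, Lss, Tm7sf2, Hsd17b7, Ebp, Dhcr7, Srebf2 and Insig1. Among these Tm7sf2 came to 1.56 (adjusted p = 0.000961), Dhcr7 to 1.2 (adjusted p = 0.000535) and Sqle to 0.60 (adjusted p = 0.00288). When the 6 libraries of WT and ACLYKO were fitted alone, 0 of the 15 calls held. Fits without 1 other library ended the calls of Mvd (WT replicate 1 or 3, adjusted p up to 0.0685), Idi1 (WT replicate 3 or ACLYKO replicate 2, up to 0.0679), Fdps (WT replicate 1 or 2 or ACLYKO replicate 2 or 3, up to 0.103), Sc5d (WT replicate 2, 0.0552), Lpin1 (WT replicate 3, 0.0676), Npc2 (WT replicate 2 or 3, up to 0.0943) and Soat1 (WT replicate 2 or 3, up to 0.0657), and voom ended those of Idi1, Fdps and Nsdhl.

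**Figure D3:**
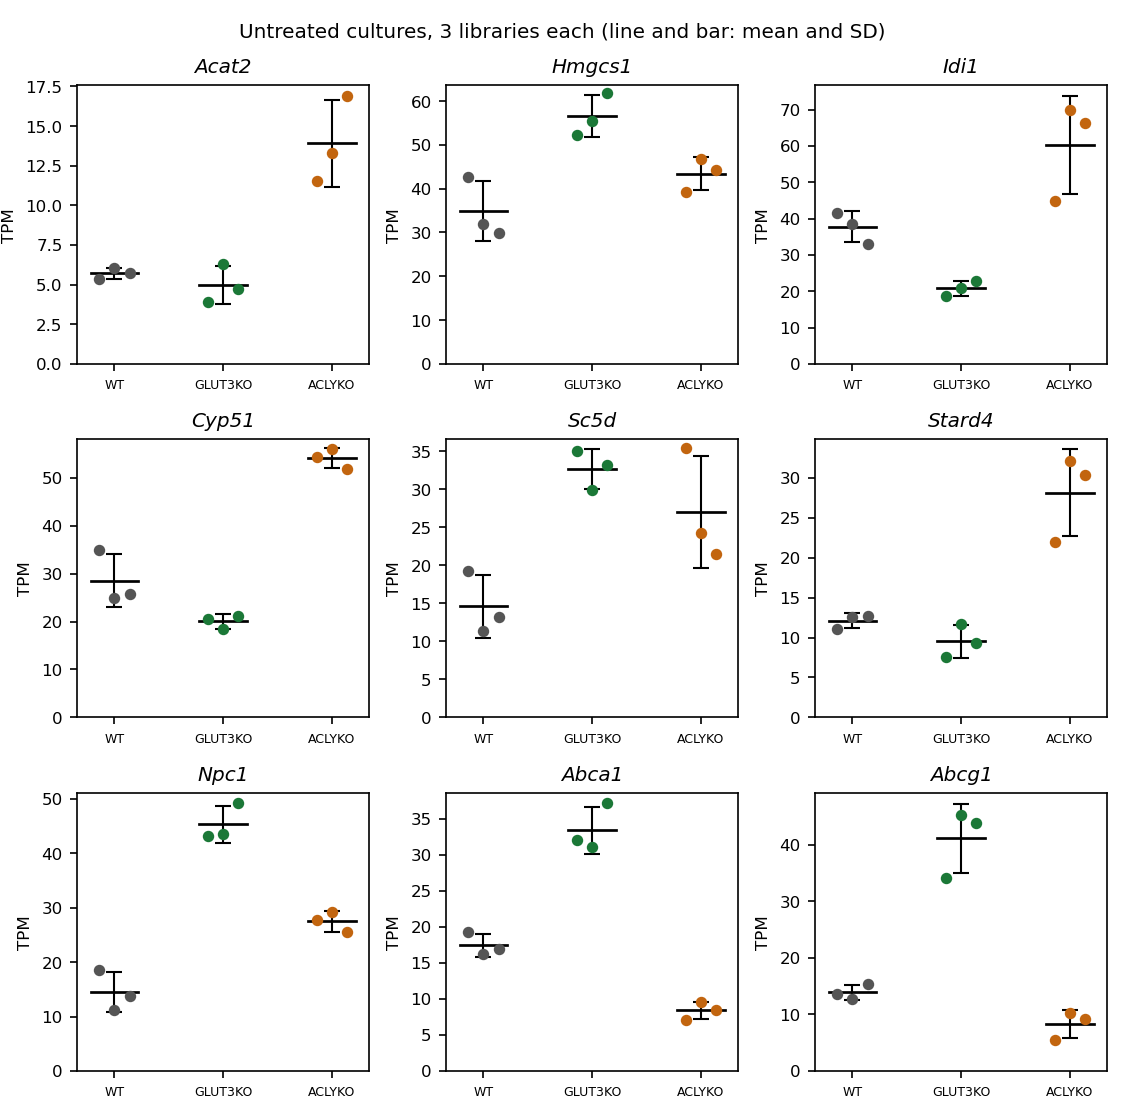
Levels in TPM of 9 genes in untreated WT, GLUT3KO and ACLYKO cultures, with 1 point per library in replicate order from left to right, a line at the mean and a bar of 1 SD (n = 3). Cyp51 and Idi1 are lowest in GLUT3KO and highest in ACLYKO, and Abca1 and Abcg1 are highest in GLUT3KO.

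The 2 knockouts were also set against each other directly, which needs no WT library. Without acetate 17 of the 32 genes differed (8 higher and 9 lower in GLUT3KO), beside 40.4% of all tested genes (25.2% higher and 15.2% lower). The 9 that were lower were Acat2, Idi1, Fdps, Cyp51, Tm7sf2, Nsdhl and Dhcr7 among the enzymes, with Stard4 and Soat1. Cyp51 differed by -1.39 (SE 0.13, adjusted p = 9.8e-07) on the log2 scale, Idi1 by -1.47 (SE 0.17, adjusted p = 6.23e-06) and Stard4 by -1.47 (SE 0.17, adjusted p = 7.56e-06). The 8 that were higher in GLUT3KO were Hmgcs1, Fdft1, Lpin1, Npc1, Npc2, Abca1, Abcg1 and Mylip. Npc2 differed by 2.36 (SE 0.33, adjusted p = 4.52e-05), Lpin1 by 2.27 (SE 0.15, adjusted p = 3.61e-08) and Abcg1 by 2.2 (SE 0.18, adjusted p = 1.79e-07). Hmgcs1 was the weakest of these (log2 change 0.37, SE 0.13, adjusted p = 0.0361), and its call ended without GLUT3KO replicate 2 or 3 or ACLYKO replicate 1 or 3 (adjusted p from 0.0585 to 0.137). The call of Soat1 ended without any 1 of the GLUT3KO libraries (adjusted p from 0.0510 to 0.0893). Without ACLYKO replicate 1, 23 were called, 8 higher and 15 lower. Hmgcs1 was lost (log2 change 0.30, adjusted p = 0.0622), Sc5d was gained as higher, and Mvk, Sqle, Hsd17b7, Ebp, Insig1 and Srebf2 were gained as lower, Srebf2 with a change of sign (from 0.39 to -0.32 (adjusted p = 0.0119)). With median-ratio scaling 20 were called, 7 higher and 13 lower, and with the 6 libraries fitted alone 11.

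Acetate in WT cells lowered Insig1 and Abca1. That is 2 of 32, both lower, beside 6.5% of all tested genes (4.22% higher and 2.28% lower), and 0 of the 19 enzymes were called by limma (1 at an unadjusted p under 0.05, and 0 with voom). The groups did not overlap in 10 genes with the higher level and 7 with the lower, beside 19.2% and 22% of all tested genes (41.2% in all). Among markers of other cell types Krt18 was called higher (log2 change 0.81, adjusted p = 0.0245), and its part was not tested. Insig1 went from 23.8, 22.3 and 25.4 TPM to 12.99, 11.98 and 12.2 with acetate, a log2 change of -0.89 (SE 0.21, adjusted p = 0.0197), with every acetate library below every untreated one. Abca1 went to 7.46, 10.8 and 9.12 TPM, also with no overlap, a change of -0.88 (SE 0.15, adjusted p = 0.00247). The call of Insig1 ended with voom and without WT replicate 1 or 3 or any 1 acetate library (adjusted p from 0.0574 to 0.0772). With median-ratio scaling Hsd17b7 (log2 change 0.70, adjusted p = 0.0425) and Stard4 (log2 change 0.62, adjusted p = 0.0198) were called higher, so that the split became 2 and 2.

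No other gene of the 32 was called for acetate in WT. The mevalonate genes Hmgcs1, Idi1 and Acat2 were at 29.9, 27.1 and 27.9, at 32.6, 27.5 and 31.96 and at 5.68, 6.95 and 6.46 TPM with acetate. All 3 Idi1 values lay just below the untreated ones, but the change was not called (log2 change -0.29, 95% interval -0.64 to 0.07, adjusted p = 0.388). Cyp51 was at 25.2, 23.97 and 27.7, Sqle at 46.5, 48.5 and 49.5 and Srebf2 at 81.9, 80.1 and 78.7 TPM. Stard4 was at 19.7, 16.9 and 19.5 TPM, above every untreated library, and its change of 0.59 (95% interval 0.22 to 0.95, adjusted p = 0.0537) lay just outside the threshold. Abcg1, at 17.3, 17.4 and 18.7 TPM, was higher in every acetate library and Mylip, at 2.02, 2.03 and 2.2 TPM, lower in every one, without passing the test.

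Acetate in GLUT3KO cells lowered Abca1, Mylip and Lpin1, all of which were higher in untreated GLUT3KO than in WT. The untreated GLUT3KO libraries serve in both comparisons. Of the 32 genes 4 were called (1 higher and 3 lower), beside 12.7% of all tested genes (4.86% higher and 7.89% lower), and 0 of 19 enzymes (3 at an unadjusted p under 0.05, and 0 with voom). The groups did not overlap in 5 genes with the higher level and 9 with the lower, beside 16.3% and 28.3% of all tested genes (44.6% in all). Abca1 fell from 32.02, 31.1 and 37.2 to 7.61, 8.22 and 9.42 TPM, a log2 change of -1.87 (SE 0.15, adjusted p = 2.71e-06). Mylip fell from 10.9, 9.995 and 13.3 to 2.8, 3.99 and 4.12 TPM (log2 change -1.42, SE 0.18, adjusted p = 0.000142) and Lpin1 from 45.8, 37.8 and 47 to 17.7, 18.04 and 15.1 TPM (log2 change -1.31, SE 0.15, adjusted p = 8.38e-05). Every acetate library lay below every untreated one in each of the 3.

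Abcg1 was at 35.05, 38.7 and 33.1 TPM, with an uncalled change of -0.19 (95% interval -0.57 to 0.18, adjusted p = 0.479), and Npc1 was at 41.02, 45.8 and 41.8 TPM, with an uncalled change of -0.08 (95% interval -0.45 to 0.30, adjusted p = 0.791). Stard4 was called higher at 13.2, 14.3 and 15.6 TPM (log2 change 0.56, SE 0.17, adjusted p = 0.0433). That call ended without GLUT3KO replicate 1 or 3 or any 1 acetate library (adjusted p from 0.0744 to 0.196). Insig1 was at 15.9, 18.2 and 16.9 TPM, below every untreated library, with a change of -0.55 (95% interval -0.99 to -0.10, adjusted p = 0.101) that passed with the replicate block (adjusted p = 0.036), as did the fall of Pmvk, phosphomevalonate kinase (-0.65, adjusted p = 0.046 with the block).

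None of the 5 enzymes called after GLUT3 loss was called again for acetate in GLUT3KO. Hmgcs1 was at 58.2, 59.1 and 56.2, Idi1 at 17.7, 19.3 and 19.99 and Cyp51 at 18.7, 17.9 and 20.03 TPM. Their log2 changes with acetate were 0.03 (95% interval -0.25 to 0.32, adjusted p = 0.883), -0.13 (95% interval -0.48 to 0.23, adjusted p = 0.627) and -0.08 (95% interval -0.36 to 0.20, adjusted p = 0.706). Fdft1 was at 9.55, 9.43 and 10.1 and Sc5d at 24.9, 27.6 and 26.4 TPM, both below every untreated GLUT3KO library and not called.

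**Figure D4:**
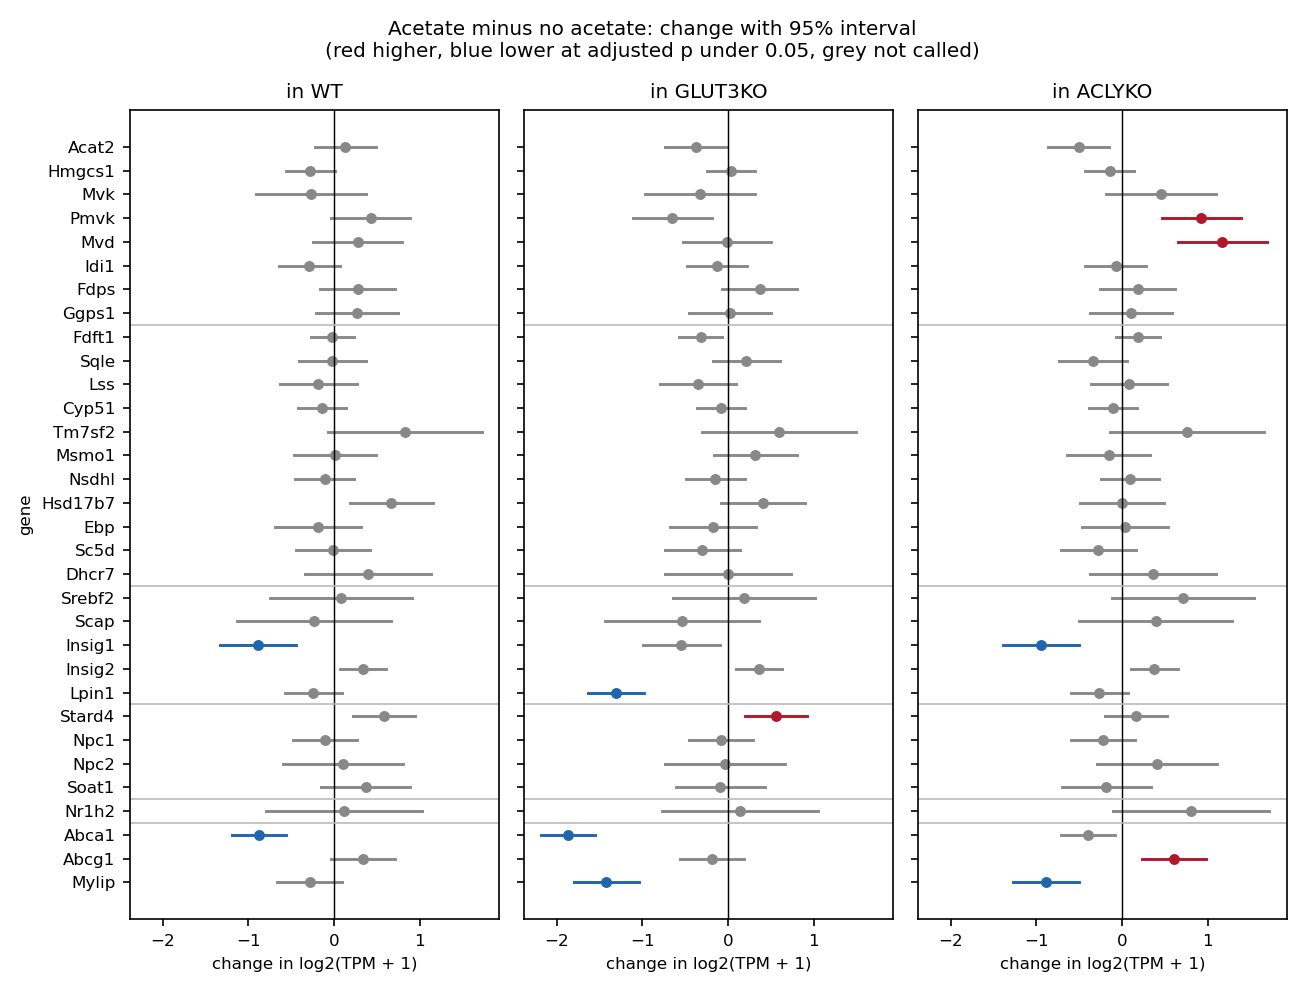
Change in log2(TPM + 1) with acetate, with its 95% interval, for the 32 genes in WT, GLUT3KO and ACLYKO cells on a common horizontal axis (red called higher, blue called lower, grey not called). Most genes are grey, and Abca1, Mylip and Lpin1 in GLUT3KO lie farthest to the left.

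Acetate in ACLYKO cells raised the mevalonate enzymes Mvd and Pmvk and the exporter Abcg1, and lowered Insig1 and Mylip. That is 5 of 32 (3 higher and 2 lower), beside 17.3% of all tested genes (11.7% higher and 5.6% lower). The groups did not overlap in 4 genes with the higher level and 4 with the lower, beside 18.7% and 9.09% of all tested genes (27.7% in all). Mvd went from 7.82, 18.6 and 13.9 to 37.8, 28.5 and 24.8 TPM, a log2 change of 1.17 (SE 0.24, adjusted p = 0.0035), beside 30.1, 30.3 and 27.3 TPM in WT with acetate. Pmvk went from 15.6 ± 1.67 to 31.1 ± 9.06 TPM (SD, n = 3), a change of 0.92 (SE 0.22, adjusted p = 0.00776). Insig1 went from 25.9, 42.5 and 44.7 to 14.5, 22.5 and 19.5 TPM (log2 change -0.95, SE 0.21, adjusted p = 0.00559), Mylip from 5.97, 5.28 and 5.35 to 3.6, 1.86 and 2.33 TPM (log2 change -0.89, SE 0.18, adjusted p = 0.00278), and Abcg1 from 5.54, 10.2 and 9.15 to 13.5, 12.6 and 12.5 TPM (log2 change 0.61, SE 0.18, adjusted p = 0.0253). None of these 5 had overlapping groups. Among markers of other cell types Cd79b (log2 change 1.66, adjusted p = 0.000303) and Cd8b1 (log2 change 1.17, adjusted p = 0.00155) were higher and Epcam (log2 change -1.01, adjusted p = 0.000457) lower with acetate in ACLYKO, and their part was not tested.

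Of the 6 enzymes higher after ACLY loss 0 were called for acetate in ACLYKO. Idi1 was at 48.6, 61.3 and 59.4 TPM (log2 change -0.08, 95% interval -0.43 to 0.28, adjusted p = 0.784), Cyp51 at 54, 49.1 and 47.9 TPM (log2 change -0.10, 95% interval -0.38 to 0.18, adjusted p = 0.626) and Stard4 at 26.6, 34.3 and 33.1 TPM (log2 change 0.16, 95% interval -0.20 to 0.52, adjusted p = 0.546). Acat2 was at 9.21, 9.89 and 9.04 TPM, below every untreated ACLYKO library, and its change of -0.51 (95% interval -0.87 to -0.15, adjusted p = 0.0505) lay just outside the threshold. Abca1, at 6.39, 5.73 and 6.24 TPM, was also lower in every library and not called (log2 change -0.39, 95% interval -0.71 to -0.08, adjusted p = 0.0845).

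Without ACLYKO replicate 1, 8 genes were called, with Acat2 (log2 change -0.62, adjusted p = 0.0159), Sqle (log2 change -0.60, adjusted p = 0.00347) and Abca1 (log2 change -0.49, adjusted p = 0.0239) now lower. With median-ratio scaling 9 were called, 3 higher and 6 lower, with Acat2, Sqle, Lpin1 and Abca1 gained as lower. When the 6 ACLYKO libraries were fitted alone 0 were called, and the call of Abcg1 also ended with voom and without any 1 of the acetate libraries (adjusted p from 0.0624 to 0.0689).

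**Figure D5:**
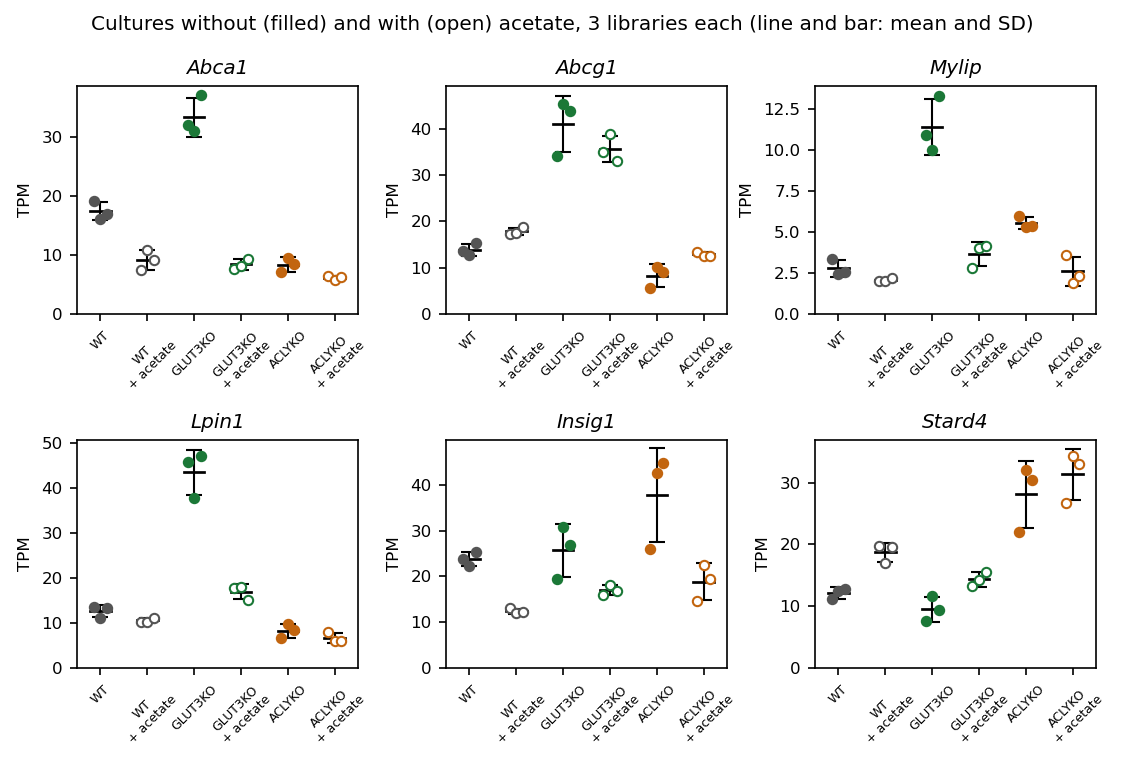
Levels in TPM of 6 genes without acetate (filled) and with acetate (open), with 1 point per library in replicate order, a line at the mean and a bar of 1 SD (n = 3). Abca1 with acetate lies between 5.73 and 10.8 TPM in all 3 genotypes, while Abcg1 in GLUT3KO with acetate lies above all WT and ACLYKO libraries.

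Whether the acetate change differed between genotypes was tested as an interaction. Against WT, the change in GLUT3KO was more negative for Lpin1, with a difference of -1.07 (SE 0.22, adjusted p = 0.0341), and for Abca1, with one of -0.99 (SE 0.21, adjusted p = 0.0413). These 2 of 32, both lower, compare with 0.773% of all tested genes (0.225% higher and 0.548% lower). Both calls ended with the replicate block (adjusted p = 0.178 and 0.166), with voom, with a pseudocount of 0.1 and in most fits that left out 1 library, namely 11 for Lpin1 (adjusted p from 0.0535 to 0.118) and 10 for Abca1 (from 0.0547 to 0.134) of the 12 WT and GLUT3KO libraries. Mylip had the largest estimate, -1.14 (95% interval -1.68 to -0.60, adjusted p = 0.0558), just outside the threshold. For ACLYKO against WT 0 of 32 interactions were called by limma (beside 1.34% of all tested genes, 0.78% higher and 0.562% lower), with 4 at an unadjusted p under 0.05 and 0 with voom. Without ACLYKO replicate 1 Hsd17b7, a sterol ketone reductase, was called (log2 change -0.98, adjusted p = 0.0385). Insig1, which was called in WT and in ACLYKO, had an interaction of -0.06 (95% interval -0.69 to 0.58, adjusted p = 0.973) between them.

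With acetate present, GLUT3KO differed from WT in 16 of the 32 genes (10 higher and 6 lower), beside 30.4% of all tested genes (20.9% higher and 9.5% lower). The groups did not overlap in 15 genes with the higher level and 13 with the lower, beside 41.4% and 29.9% of all tested genes (71.2% in all). Among markers of other cell types Epcam was higher (log2 change 0.79, adjusted p = 0.00159) and Krt18 lower (log2 change -0.98, adjusted p = 0.00152). Their part was not tested. Npc1 (log2 change 1.64, SE 0.17, adjusted p = 5.23e-06), Hmgcs1 (log2 change 1.01, SE 0.13, adjusted p = 4.25e-05) and Abcg1 (log2 change 0.96, SE 0.18, adjusted p = 0.00068) were higher. Idi1 (log2 change -0.66, SE 0.17, adjusted p = 0.00675), Acat2 (log2 change -0.69, SE 0.17, adjusted p = 0.00561) and Dhcr7 (log2 change -1.22, SE 0.34, adjusted p = 0.0143) were lower. Abca1 was at 7.61, 8.22 and 9.42 TPM in GLUT3KO and 7.46, 10.8 and 9.12 in WT with acetate, and the change was -0.10 (95% interval -0.41 to 0.22, adjusted p = 0.678). Calls that ended in at least 1 fit without 1 library were those of Pmvk, Mvd, Fdft1, Cyp51, Dhcr7, Insig2, Npc2 and Mylip, 8 in all, with adjusted p up to 0.107. With median-ratio scaling the split was 8 higher and 10 lower. With only the groups of this comparison fitted, which frees it from the spread of the other groups, 27 were called. The share of all tested genes called in that fit is not given, so this count is no result particular to the 32.

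ACLYKO differed from WT with acetate in 8 of 32 genes (6 higher and 2 lower), beside 13.5% of all tested genes (11.5% higher and 1.98% lower). The groups did not overlap in 22 genes with the higher level and 6 with the lower, beside 38.9% and 15.2% of all tested genes (54.1% in all). Among markers of other cell types Cd79b was higher (log2 change 1.21, adjusted p = 0.00473) and Krt18 lower (log2 change -0.86, adjusted p = 0.0093). Their part was not tested. Cyp51 (log2 change 0.95, SE 0.13, adjusted p = 0.000323), Idi1 (log2 change 0.85, SE 0.17, adjusted p = 0.00311), Nsdhl (log2 change 0.83, SE 0.16, adjusted p = 0.00315), Npc1 (log2 change 0.80, SE 0.17, adjusted p = 0.00653), Stard4 (log2 change 0.71, SE 0.17, adjusted p = 0.0112) and Hmgcs1 (log2 change 0.45, SE 0.13, adjusted p = 0.0352) were higher. Lpin1 (log2 change -0.60, SE 0.15, adjusted p = 0.0175) and Abca1 (log2 change -0.50, SE 0.15, adjusted p = 0.0371) were lower. Without 1 library the calls of Hmgcs1, Lpin1, Stard4 and Abca1 ended in at least 1 fit, with adjusted p up to 0.194, and with median-ratio scaling the split was 5 higher and 4 lower. Srebf2, at 96.3, 99.2 and 106 TPM beside 81.9, 80.1 and 78.7 in WT, was higher in every library and not called (log2 change 0.32, 95% interval -0.51 to 1.15, adjusted p = 0.656). That interval uses the shared spread, which takes in the untreated ACLYKO libraries. With the 6 libraries of this comparison fitted alone 21 genes were called, Srebf2 among them. Here too the share of all tested genes in that fit is not given.

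Between the knockouts with acetate 18 of 32 genes differed (7 higher and 11 lower in GLUT3KO), beside 37.7% of all tested genes (17.7% higher and 20% lower). Of the 19 enzymes 10 were lower in GLUT3KO, among them Cyp51 (log2 change -1.37, SE 0.13, adjusted p = 1.38e-06), Idi1 (log2 change -1.52, SE 0.17, adjusted p = 5.31e-06), Pmvk (log2 change -1.42, SE 0.22, adjusted p = 0.000111) and Acat2 (log2 change -1.19, SE 0.17, adjusted p = 5.69e-05), while Hmgcs1 (log2 change 0.55, SE 0.13, adjusted p = 0.00408) and Msmo1 (log2 change 0.98, SE 0.23, adjusted p = 0.00315) were higher. Abcg1 stayed higher in GLUT3KO (log2 change 1.4, SE 0.18, adjusted p = 1.88e-05) and Abca1 was near the threshold (log2 change 0.40, SE 0.15, adjusted p = 0.0456), with a call that ended without any 1 of the 6 libraries (adjusted p from 0.0530 to 0.163).

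As a description, each gene's log2 level was correlated with the mean of the other enzymes. Dhcr7 (Pearson r = 0.86), Fdps (0.85), Tm7sf2 (0.83), Mvk (0.82), Idi1 (0.80) and Nsdhl (0.80) followed it most closely, while Msmo1 (-0.37), Hmgcs1 (-0.22), Sc5d (-0.14) and Fdft1 (-0.06) did not. Of the genes that are no enzymes Stard4 was the most alike (0.87), and Lpin1 (-0.60), Npc2 (-0.58) and Abcg1 (-0.55) ran the other way. The libraries share genotype groups and depth differences, and over the 6 group means the values were 0.92 for Stard4, 0.95 for Nsdhl, 0.93 for Cyp51, -0.67 for Msmo1 and -0.86 for Npc2.

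Other genes of the pathway were read from 5 lists, with the share of all tested genes called in the same comparison and direction beside each count. Among 8 genes of SREBP proteases and sterol-regulated degradation, 4 were higher and 0 lower after GLUT3 loss (beside 24.9% and 8.47% of all tested genes), led by Erlin2, which helps degrade sterol-sensing proteins of the endoplasmic reticulum (log2 change 1.65, adjusted p = 5.71e-08), and Mbtps1, the site-1 protease of SREBP (log2 change 0.85, adjusted p = 0.00211). After ACLY loss 0 of these 8 were called by limma (2 at an unadjusted p under 0.05), beside 19.1%. Acetate lowered Mbtps1 in WT (log2 change -0.75, adjusted p = 0.024, 1 of 8 beside 2.28%) and in GLUT3KO (log2 change -0.69, adjusted p = 0.022), where Erlin2 also fell (log2 change -0.55, adjusted p = 0.00486, 2 of 8 beside 7.89%). With acetate present 5 of 8 were higher in GLUT3KO than in WT, beside 20.9%.

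Of 12 intracellular cholesterol carriers 4 were higher and 1 lower after GLUT3 loss, beside 24.9% and 8.47% of all tested genes. Gramd1c, a carrier between plasma membrane and endoplasmic reticulum, went from 0.688, 0.518 and 0.643 to 8.67, 7.46 and 7.4 TPM (log2 change 2.45, adjusted p = 1.07e-09), and Osbpl9, an oxysterol-binding protein relative, changed by 1.12 (adjusted p = 6.09e-06). After ACLY loss 4 of 12 were higher and 0 lower (beside 12.7% and 6.38%), led by Gramd1c (log2 change 0.59, adjusted p = 0.00167) and the lysosomal lipase Lipa (log2 change 0.64, adjusted p = 0.00438). Acetate lowered Gramd1c in GLUT3KO (log2 change -0.86, adjusted p = 0.000168) with Nceh1, a cholesteryl ester hydrolase (log2 change -0.88, adjusted p = 0.00275), among 2 higher and 3 lower of 12 (beside 4.86% and 7.89%). In ACLYKO with acetate Gramd1b (log2 change 0.73, adjusted p = 0.0113) and Gramd1a (log2 change 0.72, adjusted p = 0.0266) were higher, 2 of 12 beside 11.7%, and in WT 1 of 12 was lower beside 2.28%: Osbp, the oxysterol-binding protein (log2 change -0.73, adjusted p = 0.0489).

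Of 13 genes that use isoprenoids, 2 were higher and 3 lower after GLUT3 loss (beside 24.9% and 8.47% of all tested genes), led by Pdss1 (log2 change -0.58, adjusted p = 0.00363) and Coq2 (log2 change -0.73, adjusted p = 0.0059), both of ubiquinone synthesis. After ACLY loss the same 2 were higher (log2 change 0.55, adjusted p = 0.00995 for Pdss1 and 0.67 (adjusted p = 0.0167) for Coq2) and 0 were lower, beside 12.7% and 6.38%. Acetate changed 0 of 13 in WT and in GLUT3KO by limma (2 and 3 at an unadjusted p under 0.05), beside 6.5% and 12.7%. In ACLYKO 1 of 13 was higher, beside 11.7%, namely Rabggtb, a subunit of a geranylgeranyl transferase (log2 change 0.46, adjusted p = 0.0419).

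Of 12 tested LXR partners and further LXR targets 1 was higher and 2 lower after GLUT3 loss (beside 24.9% and 8.47% of all tested genes), and 2 were higher and 2 lower after ACLY loss (beside 12.7% and 6.38%). Cd5l, a lipid-binding protein that restrains pathogenic Th17 function and is a known LXR target in macrophages, stood at 15.2, 22.4 and 24.7 TPM in WT, 1.08, 1.05 and 0.988 in GLUT3KO and 66, 111 and 101 in ACLYKO. Its changes of -3.39 (adjusted p = 2.77e-07) and 2.1 (adjusted p = 8.32e-05) ran opposite to those of Abca1 and Abcg1. Rxra, a partner receptor of LXR, changed by -0.42 (adjusted p = 0.0197) and 0.88 (adjusted p = 0.000253). In ACLYKO acetate raised 5 of 12 and lowered 0 (beside 11.7% and 5.6%), led by Smpdl3a, a sphingomyelinase relative (0.828, 2.2 and 2.2 to 10.4, 10.3 and 9.64 TPM, log2 change 2.06, adjusted p = 6.89e-05), and Pltp, a phospholipid transfer protein (log2 change 1.38, adjusted p = 0.00112). In WT acetate raised 3 and lowered 1 (beside 4.22% and 2.28%), with Cd5l higher (log2 change 1.44, adjusted p = 0.00464) and Rxra lower (log2 change -0.53, adjusted p = 0.0211), and in GLUT3KO Rxra alone was called (log2 change -0.67, adjusted p = 0.00332), beside 12.7%.

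Of the 6 oxysterol enzymes 2 passed the filter, and Ch25h did so through untreated ACLYKO, where it is high, so its values are given with no test. Ch25h, which makes the LXR ligand and SREBP blocker 25-hydroxycholesterol, stood at 0, 0.0665 and 0.052 TPM in WT and 0.0729, 0.0654 and 0 in GLUT3KO, which is at or near the level of a few reads. In ACLYKO it was at 2.99, 8.96 and 9.03 TPM, and with acetate at 0.714, 0.649 and 1.02. Ch25h is also made by macrophages. The 8 macrophage and dendritic cell markers summed to 1.54 to 2.93 TPM in WT and 4.4 to 9.71 in ACLYKO, with Cd68 the 1 of the 8 that passed the filter, while C1qa and Csf1r were at 0 in all 3 ACLYKO libraries. The summed level with acetate in ACLYKO was 6.21 to 7.99 TPM. The part of other cells in these values was not tested.

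The Th17 state itself moved with the groups. The 9 Th17 and CD4 markers summed to 2284 to 2609 TPM in untreated WT, 1794 to 1888 in GLUT3KO and 1152 to 1445 in ACLYKO, and to 4197 to 5188, 3721 to 3981 and 2168 to 2335 TPM with acetate. After GLUT3 loss 3 of the 9 were higher and 3 lower (beside 24.9% and 8.47% of all tested genes), and after ACLY loss 0 were higher and 5 lower (beside 12.7% and 6.38%). Whether the cholesterol genes moved with the state of the cells was not tested.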

How the data were processed

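One table of 45703 genes held TPM values of 18 libraries, as deposited by the authors with decimal commas beside a length per gene. Per the labels' protocols, libraries were stranded and read single-end, and RNA integrity was high in all samples. The submitters' processing notes name cutadapt, STAR 2.7.2b, featureCounts 1.6.4 and build GRCm38.p6. Whether reads were counted by strand is not stated in those notes.

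TPM times length gave whole reads (100% within 0.01 reads for values under 500 reads). Tests were run with limma 3.58.1 in R 4.3.3 on log2(TPM + 1), with 1 fit of 6 group means over all 18 libraries, moderated variances with trend and robust settings, and Benjamini-Hochberg adjustment over 14229 genes in each of 11 comparisons. Fold changes are on the log2(TPM + 1) scale, which understates the change of low genes. The fit was tested on simulated counts drawn independently for each library, with the same dispersion for all. These hold no within-group axis and no library like ACLYKO replicate 1, so the test does not cover them. Genes given library by library were 11 fixed by name and the 6 others with the smallest adjusted p in the first 5 comparisons, and pathway lists gave up to 2 called genes each. Scap, Npc2 and Soat1 were added to the first set after their values were seen, because of ACLYKO replicate 1. The 32 genes and the lists were chosen with earlier results of these data known. Alternatives were 8 settings and 18 fits without 1 library.

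Same-numbered libraries deviated together in the 3 acetate comparisons (9 pairs, correlation from 0.120 to 0.548) and in ACLYKO against WT without acetate (0.567, 0.285 and 0.577). The replicate block, an alternative setting, was therefore read as pairing them there and in the tests of the acetate difference. The main fit, which gave the counts and p-values wherever no other setting is named, used no pairing. In the other comparisons between genotypes the block was not read as pairing. With acetate the correlations against WT were also positive but low, from 0.0454 to 0.0958 for GLUT3KO and 0.0144 to 0.124 for ACLYKO. The highest of these reached those of acetate in WT (0.120 to 0.130), so the line drawn is not a sharp one. GLUT3KO against untreated WT, and the knockouts against each other, held negative values.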

Additional observations from a re-analysis of the deposited data

Results flagged for a closer look

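In the main fit, which does not pair the libraries, the test of a difference between genotypes picked out 2 of the 32 genes. The log2 acetate change of Lpin1 in GLUT3KO minus that in WT was -1.07 (SE 0.22, adjusted p = 0.0341), with a change of -1.31 in GLUT3KO and -0.24 in WT, each library of both genotypes being lower with acetate. That of Abca1 differed by -0.99 (SE 0.21, adjusted p = 0.0413), with -1.87 in GLUT3KO and -0.88 in WT. With acetate the Abca1 levels of the 2 genotypes overlapped, while untreated GLUT3KO had started higher. With the replicate block neither passed.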

How the results depend on the processing

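Over the 11 comparisons there were 99 calls of the 32 genes. A pseudocount of 0.1 ended 2 of them, testing without a filter 4, a filter at 5 TPM 1 and median-ratio scaling 6 (23 new). Fitting only the groups compared ended 29 (30 new) and voom on recovered reads 19 (3 new). A further setting left out the 5 libraries highest on the within-group axis, which were picked from these same data. It left untreated GLUT3KO with replicate 2 alone, which scored -36.0 on that axis, so counts that rest on that group are not given. The replicate block ended 2 calls, both in the GLUT3KO interaction, which went from 2 to 0, and added 14. Where it was read as pairing the libraries, the block took ACLY loss from 15 to 17 and acetate in GLUT3KO from 4 to 6, and changed no other call. The main fit shares 1 spread over the 6 groups, so the calls of a comparison also depend on libraries outside it. Counts under other settings are given here and above without the share of all tested genes called in the same setting. They show how the calls depend on the setting and are no result particular to the 32 genes. The numbers of genes called moved by more than 1.5 times as follows, and the cause was not tested. Fitting only the groups compared gave 0 for ACLY loss, 0 for acetate in ACLYKO, 27 for GLUT3 loss and 21 for ACLY loss with acetate, and 11 between the untreated knockouts. Without the 5 libraries there were 29 for ACLY loss, 11 and 17 for acetate in WT and ACLYKO, and 3 for the ACLYKO interaction. With acetate the same setting gave 27 for GLUT3 loss and 26 for ACLY loss. Leaving out libraries by their within-group deviation tends to lower the shared spread, so no conclusion is drawn from these rises. Median-ratio scaling gave 4 for acetate in WT and 9 in ACLYKO, and voom gave 1 for acetate in WT. The GLUT3KO interaction gave 0 with a pseudocount of 0.1, 0 with voom and 1 with the filter at 5 TPM.

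Leaving out 1 library gave 11 to 13 genes for GLUT3 loss, 10 to 23 for ACLY loss, 1 to 2, 3 to 5 and 4 to 8 for acetate in WT, GLUT3KO and ACLYKO, 9 to 13 and 4 to 7 for GLUT3 and ACLY loss with acetate, 0 to 1 for each interaction, and 15 to 23 and 17 to 18 between the knockouts without and with acetate. Signs turned for a few genes. Without the 5 libraries ACLY loss gave 0.50 for Mvk, 0.40 for Srebf2 and 0.50 for Scap. In the same setting acetate in ACLYKO gave -0.38 for Ebp and -0.48 for Scap. There GLUT3KO against ACLYKO, with GLUT3KO replicate 2 alone, gave -0.26 for Srebf2 and -0.85 for Scap. Without 1 library Srebf2 ranged from -0.72 to 0.40 in ACLY loss and from -0.32 to 0.79 in GLUT3KO against ACLYKO, the 0.40 and the -0.32 being without ACLYKO replicate 1. At these depths 1 read of a gene of 2000 bases was worth 0.0342 to 0.0719 TPM, which limits genes such as Ch25h in WT.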
